A study of Homo sapiens with 12 samples.

Results

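Untreated KURAMOCHI (Ku) cells were compared with untreated COV362 (Cov) cells, 2 human ovarian cancer cell lines in wide use as models of high-grade serous disease. The members were taken by their labels and are the DMSO libraries of both lines, 2 replicates each, or 4 of the 12 libraries of the series. The series was made to follow transcription under the covalent CDK7, CDK12 and CDK13 inhibitor THZ1, and its remaining libraries hold the same lines with THZ1 at 50 or 250 nM. All 4 libraries compared here come from untransduced cells kept for 6 hr in DMSO, the vehicle, and hold poly(A) RNA. Ku cells grew in RPMI and Cov cells in DMEM, both with fetal bovine serum and antibiotics, so medium and cell line cannot be told apart. Each line is 1 established line, and its replicates show the spread within that line and not the spread among ovarian cancers.

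Expression is given as FPKM, a measure of reads divided by transcript length and by library size, that allows levels of different genes to be set side by side. The authors tied these FPKM to ERCC RNAs, synthetic transcripts added to RNA from counted cells, and deposited a separate table for each line. Differences between the lines are therefore described with every library's value and with the rank of a gene inside its own library, and no p-value was taken across the tables. The tables give no read counts, and library depth cannot be known from them.

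High-grade serous carcinoma is thought to arise mainly from the secretory epithelium of the fallopian tube, a derivative of the Müllerian duct. Its cells usually keep the Müllerian factor PAX8 and, in most cases, the transcription factor WT1, together with simple keratins, EPCAM and mucins of the surface epithelium. The disease is marked by gains and losses of large chromosome segments, among them gains of MYC and CCNE1 and losses of RB1, so lines from different tumors can share a lineage and still differ in many genes.

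The same genes were measured in both tables. Of 23621 genes outside the ERCC set, 14101 exceeded 1 FPKM in 1 or more of the 4 libraries and were tested for a gap between the lines. Summed FPKM were 1234310 and 1227780 in the Ku libraries and 1472390 and 1686570 in the Cov libraries, and the median FPKM of the tested genes was 13.0 and 11.1 in Ku against 13.7 and 14.7 in Cov. Genes above 1 FPKM numbered 12652 and 12466 in Ku and 13028 and 13218 in Cov. The Cov libraries thus held slightly more genes at slightly higher values. Across genes, which are not independent replicates, log2(FPKM + 1) correlated between replicates with Pearson's r of 0.967 in Ku and 0.975 in Cov, and between the lines with 0.830 to 0.839. The median absolute difference between replicates was 0.17 in Ku and 0.12 in Cov on the log2 scale, and 0.62 to 0.70 between libraries of different lines. Genes at least 4-fold apart made up 0.645% and 0.560% of the tested genes between replicates and 7.99% to 8.90% between lines.

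A gene was called set apart when the lowest library of one line exceeded the highest library of the other by at least 2 on the log2(FPKM + 1) scale, or 4-fold. By this measure 307 genes (2.18% of those tested) were higher in Ku and 606 (4.30%) were higher in Cov, and these shares are the background for every gene list described here. Without the 4-fold gap, both Ku libraries lay above both Cov libraries for 4404 genes (31.2%), and both Cov libraries lay above both Ku libraries for 7684 genes (54.5%). The lines had much in common, since 9771 genes (69.3%) differed by less than 2-fold in their means and 11619 genes were above 1 FPKM in all 4 libraries. Another 583 genes were above 1 FPKM in both Ku libraries and in neither Cov library, and 1067 showed the opposite pattern. The median replicate SD of the tested genes was 0.12 on the log2 scale. Fold changes on the log2(FPKM + 1) scale understate the change of genes near the bottom of the range, where many genes share a common low value in each library, here called the floor, of 0.118 and 0.119 FPKM in Ku and 0.102 and 0.110 in Cov.

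What counts as equal between the tables depends on the scaling. The median difference of all tested genes, Ku minus Cov, was -0.28 in the deposited values, -0.07 with each library scaled to the same median, -0.00058 with median-of-ratios scaling and 0.04 with libraries scaled to equal sums of FPKM. The 49 ERCC RNAs above 1 FPKM in all 4 libraries had a median difference of 0.66, with 47 of them higher in both Ku libraries and 0 higher in both Cov libraries. The spike-in scales of the tables thus did not meet, and scaling every library to the same ERCC median moved the median difference to -0.86. Ku genes made up 33.6% of the genes set apart in the deposited values, 44.1% with equal medians, 47.3% with median-of-ratios scaling and 50.2% with equal sums, while the ERCC alignment gave 193 genes higher in Ku and 1187 higher in Cov. Of the genes set apart in the deposited values, 193 of the 307 higher in Ku (62.9%) and 380 of the 606 higher in Cov (62.7%) stayed set apart under all 5 scalings.

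**Figure D1:**
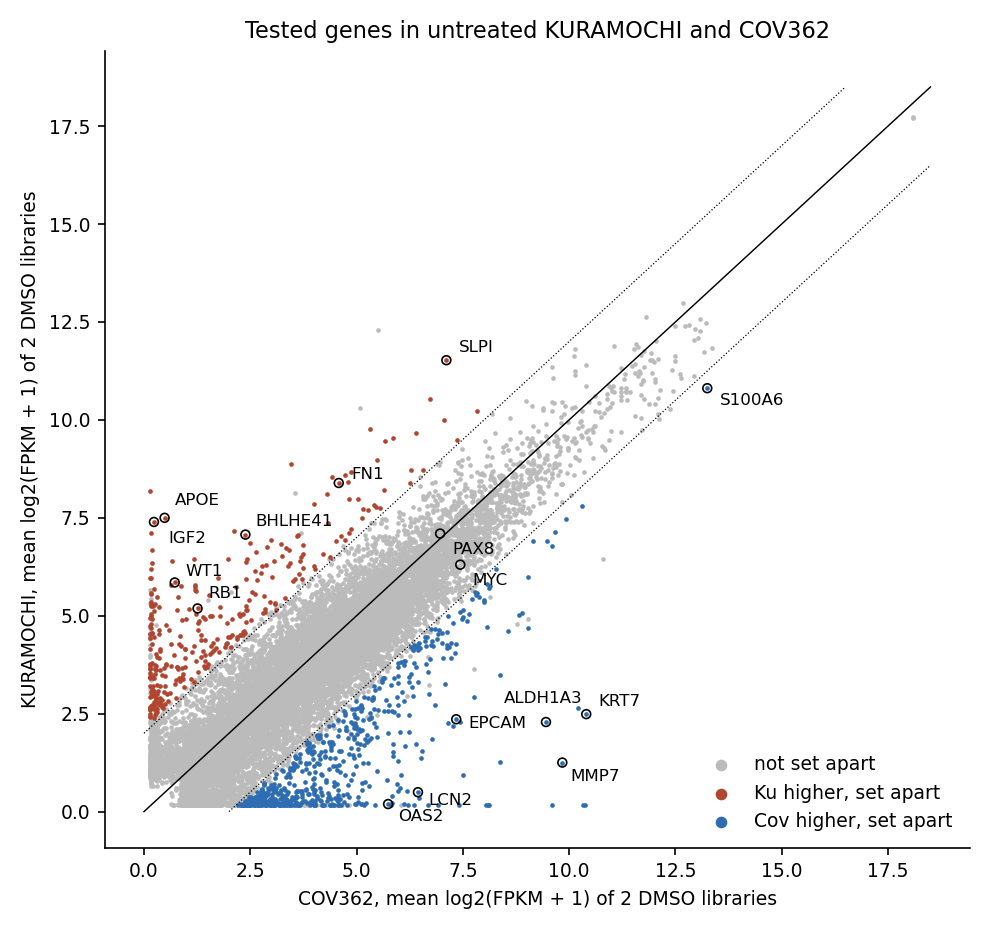
Mean log2(FPKM + 1) of the 2 DMSO libraries of each line for the tested genes, with Cov on the horizontal and Ku on the vertical axis. The solid line marks equal values and the dotted lines a 4-fold difference. Red points are genes set apart with Ku higher, blue points those with Cov higher, grey points the other tested genes, and circles mark named genes such as KRT7 (-7.92) and IGF2 (7.16) far from the line and PAX8 (0.13, and -0.53 with the ERCC alignment) beside it.

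Both lines carried the main Müllerian lineage factors, with the exception of WT1 in Cov cells. PAX8, the paired-box factor that marks Müllerian epithelium (chr2:113973574-114036498 in GRCh37), stood at 139.97 and 132 FPKM in the Ku libraries and 120.3 and 128 in the Cov libraries. It ranked at the 93.7 percentile of the tested genes in Ku and at the 91.3 percentile in Cov, and its difference of 0.13 turned to -0.53 with the ERCC alignment. SOX17, which acts with PAX8 in tubal and ovarian cancer cells, was likewise abundant in both, at 139 and 146 FPKM in Ku and 113 and 121 in Cov, with a difference of 0.29 that became -0.37 with that alignment. MECOM, a zinc finger factor often gained in serous carcinoma, reached 25.4 and 22.9 in Ku and 25.97 and 29.4 in Cov, a difference of -0.19 that turned to 0.04 with equal medians. These 3 genes were expressed in every library and did not separate the lines.

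WT1 did separate them. Its FPKM was 60.1 and 53.4 in the Ku libraries and 0.565 and 0.741 in the Cov libraries, so that it stood at the 84.4 percentile in Ku and at the 4.83 percentile in Cov, below 1 FPKM in both Cov libraries (chr11:32409321-32457110). Cov cells therefore showed PAX8 without WT1 at the level of RNA. BHLHE41, a basic helix-loop-helix repressor that also works in the circadian clock, was another lineage gene far higher in Ku, with 143 and 125 FPKM there and 4.14 and 4.31 in Cov, 31.7-fold by the means. MSX1, a homeobox factor of the Müllerian duct, was 14.8 and 15.7 in Ku and 2.35 and 1.60 in Cov, a gap below 4-fold with the ERCC alignment. In the other direction LHX1, a LIM homeobox factor required for the early Müllerian duct, was 1.42 and 1.30 in Ku and 35.4 and 39.2 in Cov, 27.4-fold higher in Cov. GATA6 was 6.58 and 6.32 in Ku and 15.6 and 17.5 in Cov, and MEIS1, a HOX cofactor, 25.03 and 22.6 in Ku and 52.5 and 59.6 in Cov, both higher in Cov without a 4-fold gap. PAX2, PGR, FOXA2 and OVGP1 were at or below 1 FPKM in all 4 libraries, and ESR1 reached only 1.95 and 2.41 FPKM in Cov and 0.201 and 0.253 in Ku. Of the 17 lineage factors tested, 3 were set apart with Ku higher and 1 with Cov higher, and the list had a median difference of 0.29 that turned to -0.30 with the ERCC alignment.

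The antigens used to detect ovarian carcinoma split the lines into different sets. Of 27 tested surface and secreted antigens, 8 were set apart with Ku higher and 8 with Cov higher, 29.6% each way, against 2.18% and 4.30% of all tested genes. Among the genes higher in Ku were several that encode secreted proteins. SLPI, a secreted protease inhibitor of mucosal epithelium, was 3060.04 and 2835 FPKM in Ku and 128 and 147 in Cov, 21.4-fold higher in Ku. SPP1, which encodes the matrix protein osteopontin, was 1493 and 1462 in Ku and 101 and 108 in Cov. Both genes were among the most abundant transcripts of Ku cells, and in each case the lowest Ku library exceeded the highest Cov library by more than 8-fold. A run of kallikrein-related peptidases, secreted serine proteases encoded side by side on chromosome 19, followed the same direction. KLK6 was 37.8 and 36.3 in Ku and 0.135 and 0.114 in Cov, KLK5 33.1 and 26.6 in Ku and at the floor in both Cov libraries, and KLK8 42.4 and 34.9 in Ku and 0.119 and 0.289 in Cov. KLK7 was 19.5 and 14.7 in Ku and at the floor in Cov. The phosphate transporter SLC34A2, an antibody target in this disease, was 141 and 122 in Ku and 10.7 and 11.4 in Cov, and the copper carrier CP was 82.9 and 72.1 in Ku and 5.59 and 7.02 in Cov.

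Membrane mucins and claudins were among the genes higher in Cov. MUC1 was 26.5 and 24.1 FPKM in Ku and 250.1 and 286 in Cov, 10.6-fold higher in Cov. MUC16, the large mucin that carries the serum marker used in ovarian cancer, was 0.172 and 0.159 in Ku and 5.20 and 6.22 in Cov, so that Ku libraries held it below 1 FPKM, and its gap fell below 4-fold with equal sums. CLDN4, a tight junction claudin, was 14.4 and 13.7 in Ku and 126 and 136 in Cov, and CLDN6, a claudin of embryonic epithelium, was 0.122 and 0.183 in Ku and 29.6 and 31.5 in Cov. LCN2, an iron-binding secreted lipocalin, was 0.583 and 0.256 in Ku and 85.4 and 86.9 in Cov. CD44, a hyaluronan receptor, was 56.3 and 46.2 in Ku and 260.2 and 296 in Cov, a gap that fell below 4-fold under some scalings. Antigens shared by both lines included MSLN at 69.00 and 68.3 in Ku and 103 and 110.4 in Cov and the Ku-leaning WFDC2 at 502 and 446 in Ku and 165 and 171 in Cov. Folate receptor FOLR1, in contrast, was low in both, at 2.11 and 1.69 in Ku and 4.50 and 4.29 in Cov.

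Most epithelial adhesion genes were higher in Cov. Of 32 tested genes of epithelial adhesion and keratins, 10 were set apart with Cov higher (31.3%) and 0 with Ku higher. Both Cov libraries lay above both Ku libraries for 25 of the 32 and below them for 6, against 54.5% and 31.2% of all tested genes. The 6 were KRT8, KRT18, KRT23, KRT5, OCLN and CDS1. With the ERCC alignment OCLN and CDS1 no longer belonged to them. There the OCLN libraries of the lines overlapped, and the CDS1 difference of 0.34 turned to -0.22. The list median was -1.23 beside -0.28 for all tested genes and between -1.58 and -0.88 under the other scalings. KRT7, a keratin of glandular and Müllerian epithelium (chr12:52626304-52645970), was 4.68 and 4.54 FPKM in the Ku libraries and 1287 and 1423 in the Cov libraries. That is a 294-fold difference of the means, and a move from the 30.3 percentile of the tested genes in Ku to the 99.2 percentile in Cov. EPCAM, the epithelial cell adhesion molecule, was 4.01 and 4.24 in Ku and 149.9 and 174 in Cov, 39.2-fold higher in Cov. The desmosomal plakophilin PKP3 was near the floor in Ku (0.120 and 0.175) and 29.6 and 30.9 in Cov. ELF3, an epithelial ETS factor, was 2.54 and 2.72 in Ku and 28.6 and 30.4 in Cov. ESRP1, a splicing factor of epithelial isoforms, was 0.332 and 0.279 in Ku and 4.34 and 4.72 in Cov. MAL2, a protein of apical vesicle traffic, was 35.8 and 29.6 in Ku and 442 and 510.1 in Cov, and the matriptase inhibitor SPINT1 was 2.45 and 1.78 in Ku and 26.2 and 29.9 in Cov. KRT19 was 47.9 and 47.3 in Ku and 213 and 228 in Cov. The gaps of KRT19 and ESRP1 fell below 4-fold under at least 1 of the other scalings.

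Ku cells were not devoid of keratin. KRT8 was 2489 and 2375 FPKM in Ku and 1066 and 1199 in Cov, and its partner KRT18 was 2193 and 2077 in Ku and 744 and 841 in Cov, both higher in Ku under every scaling. E-cadherin, the product of CDH1 and the adhesion protein of most epithelia, was low in both lines, at 0.559 and 0.377 in Ku and 4.21 and 4.70 in Cov. CDH1 lay well below the N-cadherin gene CDH2, at 37.6 and 31.8 in Ku and 76.4 and 84.2 in Cov, and below the Müllerian and renal cadherin CDH6, at 255 and 224 in Ku and 154 and 177 in Cov, with a CDH6 difference of 0.53 that turned to -0.14 with the ERCC alignment. The epithelial factors GRHL2 and RAB25 were at or below 1 FPKM in all 4 libraries. Neither line therefore held the full set of an adherent epithelium, and Cov held more of it than Ku.

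Mesenchymal genes did not fall on the opposite side as a block. Of 33 tested, 5 were set apart with Ku higher (15.2%) and 7 with Cov higher (21.2%), with a list median of -0.24 that turned to 0.07 with equal sums. FN1, the gene of fibronectin, was 366 and 305 FPKM in Ku and 20.9 and 25.2 in Cov, 14.6-fold higher in Ku. TAGLN, an actin-binding protein of contractile cells, was 417 and 399 in Ku and 27.5 and 28.5 in Cov. The basement membrane collagen COL4A1 was 126 and 114 in Ku and 21.4 and 22.4 in Cov, and its neighbor COL4A2 was 212 and 199.5 in Ku and 36.02 and 39.1 in Cov. COL3A1, a fibrillar collagen, was 9.43 and 7.74 in Ku and 0.612 and 0.715 in Cov, and the gaps of these 3 collagens fell below 4-fold with the ERCC alignment. The matrix genes of Cov were others. COL1A2 was 0.134 and 0.120 in Ku and 40.4 and 44.1 in Cov, while its partner chain COL1A1 stood at only 2.59 and 2.46 in Ku and 3.13 and 3.20 in Cov, a difference of -0.24 that turned to 0.02 with equal sums. TGFBI, a matrix protein induced by TGF-beta, was 0.428 and 0.300 in Ku and 24.4 and 28.9 in Cov, and the fibrillin gene FBN1 was 1.15 and 0.872 in Ku and 21.9 and 24.99 in Cov. TWIST2, a factor of mesenchymal development, was 1.46 and 1.66 in Ku and 14.97 and 14.6 in Cov.

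The intermediate filament VIM was abundant in both lines and higher in Cov, with 651 and 600.5 FPKM in Ku and 1685 and 1899.96 in Cov. SNAI1, a repressor of CDH1, was 17.3 and 14.3 in Ku and 4.81 and 4.08 in Cov, and TWIST1 was 11.01 and 10.1 in Ku and 20.9 and 21.8 in Cov. ZEB1, another repressor of CDH1, was 8.99 and 6.79 in Ku and 5.78 and 6.56 in Cov, a difference of 0.30 that turned to -0.28 with the ERCC alignment. VIM and keratin transcripts thus stood together in both lines, with the balance of KRT8 and KRT18 toward Ku and that of KRT7, KRT19 and VIM toward Cov.

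**Figure D2:**
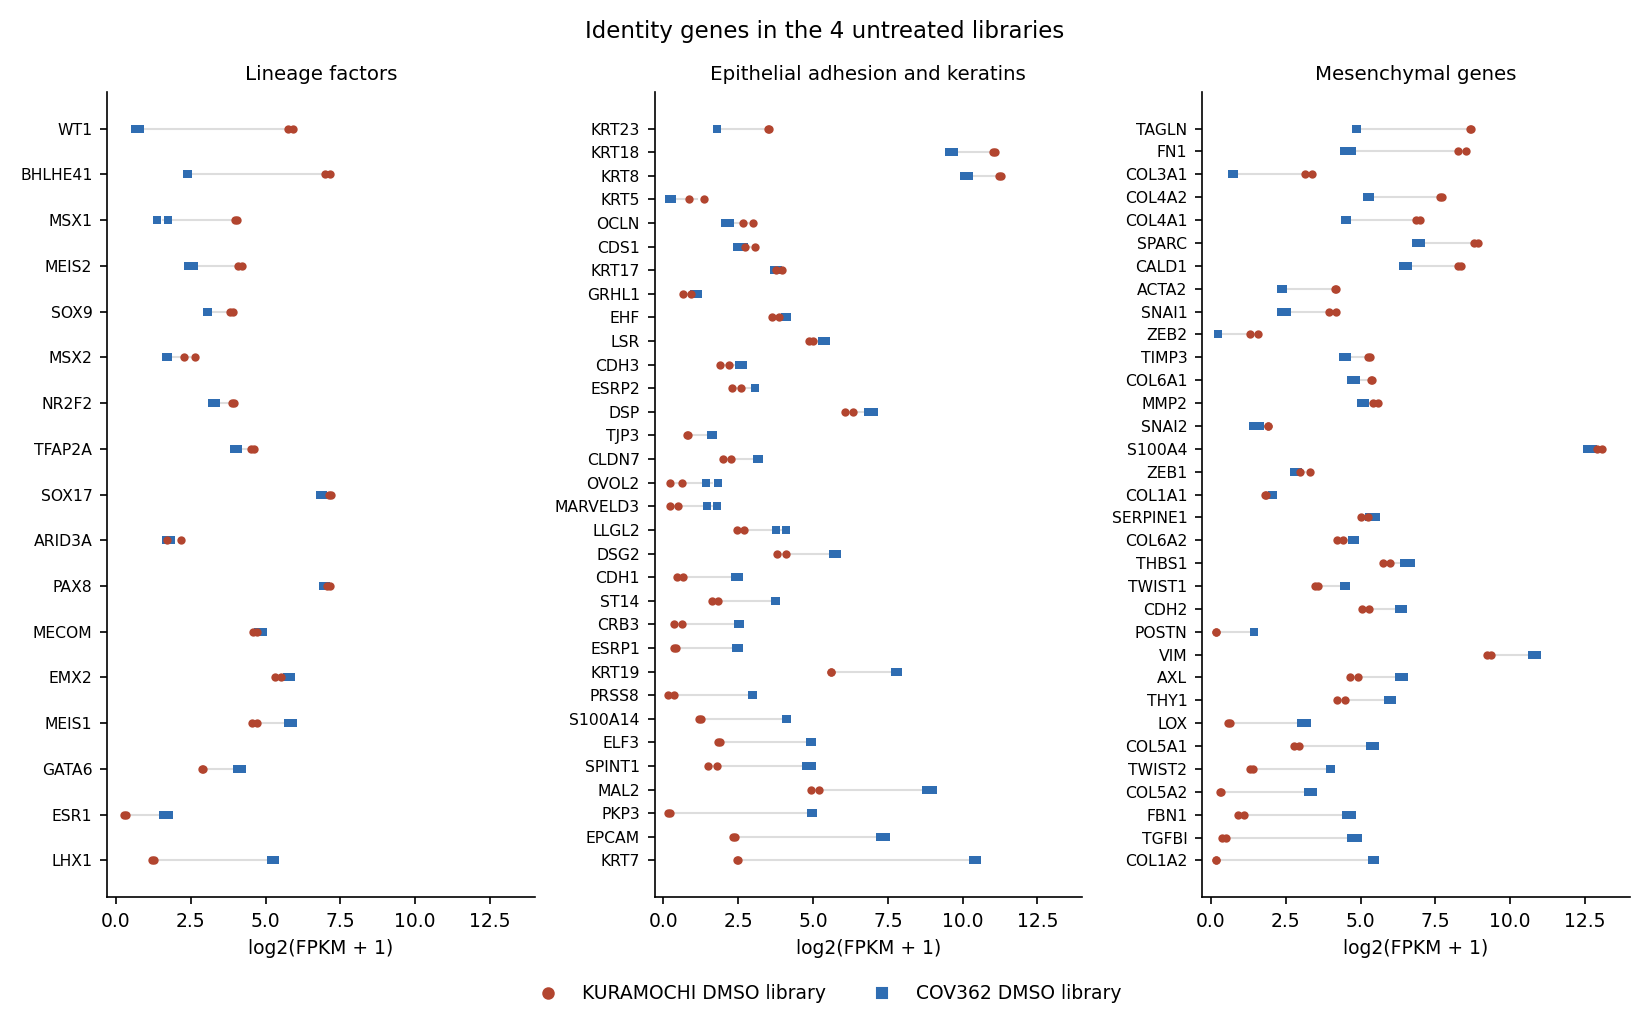
Log2(FPKM + 1) of the tested lineage factors, epithelial genes and mesenchymal genes in each Ku library (red circles) and each Cov library (blue squares), ordered by the difference of the line means. WT1 and BHLHE41 lie far to the Ku side, KRT7, EPCAM, COL1A2 and LHX1 far to the Cov side, and replicate points overlap for most genes, while PAX8 and SOX17 lie together (their small differences turn with the ERCC alignment).

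The largest gaps between nearest libraries were chosen by a rule that took 15 genes for each line and left out small RNAs. The largest gap toward Ku belonged to IGF2, an imprinted fetal growth factor (chr11:2150342-2179621), with 170.3 and 164 FPKM in Ku and 0.137 and 0.217 in Cov. APOE, a lipid carrier protein, was 177 and 184 in Ku and 0.384 and 0.415 in Cov. SERPINA5, an inhibitor of serine proteases, was 105 and 99.03 in Ku and 0.122 and 0.144 in Cov. These 3 genes stood between the 91.2 and the 95.2 percentile of the tested genes in Ku and between the 1.43 and the 3.66 percentile in Cov. A2M, a broad protease inhibitor, was 86.5 and 74.2 in Ku and 0.140 and 0.153 in Cov, and FLG, the filaggrin gene of cornified skin, was 79.3 and 65.7 in Ku and 0.117 and 0.124 in Cov. DPP4, a surface peptidase, was 90.1 and 77.01 in Ku and 0.585 and 0.579 in Cov. MYL9, a myosin light chain of contractile cells, was 488 and 456 in Ku and 9.88 and 10.3 in Cov, 46.9-fold higher in Ku. TIE1, an orphan receptor kinase best known in endothelium, was 48.8 and 44.4 in Ku and 0.103 and 0.130 in Cov. The heparan sulfatase SULF1 was 92.1 and 82.03 in Ku and 1.26 and 1.24 in Cov, 69.9-fold higher in Ku. The rule also took ALDH1A2, CRABP1, KANK1, KLK6, WFDC11 and MAGEA12, with 36.3 to 65.7 FPKM in Ku and at most 0.247 in Cov. MAGEA12 has near-identical copies on chromosome X, so its own level is uncertain.

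On the Cov side the largest gap was that of MMP7, the secreted protease matrilysin of glandular epithelium (chr11:102391239-102401481), with 1.13 and 1.66 FPKM in Ku and 873 and 962 in Cov, 657-fold higher in Cov. MT1E, a metal-binding metallothionein, was 0.124 and 0.124 in Ku and 271 and 273 in Cov, with its level uncertain because of near-identical copies. RHOD, a small GTPase of endosome traffic, was 0.124 and 0.124 in Ku and 252 and 275 in Cov. The LIM protein gene CRIP1 was 4.19 and 6.61 in Ku and 1141 and 1244 in Cov, 221-fold higher in Cov. ALDH1A3, an enzyme of retinoic acid synthesis, was 3.91 and 3.85 in Ku and 652 and 754 in Cov, 181-fold higher. RARRES2, which encodes the chemoattractant chemerin, was 1.44 and 1.35 in Ku and 317 and 342 in Cov. These 6 genes stood among the abundant transcripts of Cov cells and reached at most 6.61 FPKM in Ku cells. RCAN2, a regulator of calcineurin, was 0.121 and 0.144 in Ku and 113 and 127 in Cov. CD55, a surface inhibitor of complement, was 0.959 and 0.842 in Ku and 169 and 191 in Cov. MALL, a membrane raft protein, was 0.120 and 0.121 in Ku and 96.5 and 105 in Cov. DKK1, a secreted antagonist of Wnt signaling, was 0.120 and 0.120 in Ku and 71.98 and 74.6 in Cov. SHISA3, AFAP1-AS1, LCN2 and OAS2 completed the rule together with KRT7, and AFAP1-AS1, a long noncoding RNA antisense to AFAP1, was 0.146 and 0.178 in Ku and 54.6 and 58.3 in Cov. In the libraries given 50 nM THZ1, 237 of the 307 genes higher in Ku (77.2%) and 262 of the 606 higher in Cov (43.2%) were also set apart in the same direction, among them all genes taken by this rule, which have the widest gaps. At 250 nM these shares were 54.1% and 38.6%.

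Several of the most abundant transcripts were shared between the lines. MIR1244-2 and MIR1244-3 headed both lines, MIR1244-2 at 197816 and 236662 FPKM in Ku and 254133 and 304750.00 in Cov, but these are short entries of a multicopy RNA and a per-length value of such an entry is uncertain. Among protein-coding genes, RPS18 and RPS27 of the small ribosomal subunit were in the top 10 of both lines. S100A4, a calcium-binding protein linked to motility, was the most abundant protein-coding gene of Ku, at 8605 and 7727 in Ku and 6034 and 7040.2 in Cov, a difference of 0.32 that turned to -0.34 with the ERCC alignment. Its relative S100A6 was in the top 10 of Cov only, at 1845 and 1745 in Ku and 8979 and 10573 in Cov, 5.45-fold higher in Cov. RPL41 was 3803 and 3508 in Ku and 9886 and 11209.6 in Cov, and EEF1A1 was 5108 and 4722 in Ku and 7969.6 and 9351 in Cov. The small nucleolar RNA SNORD47 was erratic, at 3085 and 8179.6 in Ku and 1852 and 0.110 in Cov. Small RNAs held 36.1% and 41.4% of the summed FPKM in Ku and 36.6% and 37.8% in Cov, so sums over all genes are in large part sums over a few short entries.

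Interferon response genes formed the gene list with the largest share set apart with Cov higher. Type I and type II interferons act through JAK kinases and STAT proteins to switch on antiviral genes, and many of these genes also keep a low level in the absence of infection. Of 38 genes tested, 17 were set apart with Cov higher (44.7%) and 0 with Ku higher, and both Cov libraries lay above both Ku libraries for 34 of the 38, against 54.5% of all tested genes. The list median was -1.83 in the deposited values beside -0.28 for all tested genes, and -2.42 to -1.45 under the other scalings, so the direction of the list did not turn. No interferon was added to either line according to the labels.

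The oligoadenylate synthetases, which sense double-stranded RNA, had the widest gaps of the list. OAS2 was 0.165 and 0.121 FPKM in the Ku libraries and 51.4 and 53.7 in the Cov libraries. OAS3 was 0.562 and 0.478 in Ku and 61.03 and 66.96 in Cov, and OAS1 was 1.88 and 1.06 in Ku and 60.7 and 64.2 in Cov. Their relative OASL was 0.596 and 0.355 in Ku and 31.6 and 36.1 in Cov. Ku libraries thus held these 4 genes at no more than 1.88 FPKM, and Cov libraries at 31.6 to 67.0 FPKM. The GTPase MX1 was 9.90 and 4.80 in Ku and 97.2 and 110.3 in Cov, and MX2 was 0.172 and 0.144 in Ku and 8.10 and 8.85 in Cov. Tetratricopeptide genes of the IFIT family bind viral RNA. IFIT1 was 7.38 and 4.24 in Ku and 58.8 and 65.9 in Cov, IFIT2 5.42 and 3.75 in Ku and 59.4 and 65.1 in Cov, and IFIT3 18.3 and 13.4 in Ku and 145 and 174 in Cov. IFIH1, the RNA sensor MDA5, was 1.32 and 1.16 in Ku and 19.6 and 21.9 in Cov, a 16.8-fold difference. RSAD2, which encodes viperin, was 0.411 and 0.229 in Ku and 10.04 and 11.9 in Cov, and XAF1 was 0.465 and 0.238 in Ku and 16.9 and 17.4 in Cov.

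The signaling genes upstream differed much less. STAT2 was 8.06 and 5.87 FPKM in Ku and 12.7 and 13.4 in Cov, and IRF9, its DNA-binding partner, 29.2 and 23.3 in Ku and 30.8 and 35.4 in Cov, with an IRF9 difference of -0.33 that turned to 0.01 with equal sums. The transmembrane IFITM genes ran against the rest of the list. IFITM3, which blocks viral entry, was 1309 and 1225 in Ku and 642 and 702 in Cov, higher in Ku under every scaling, while the smaller Ku excess of IFITM1 (0.39), IFITM2 (0.24) and IRF1 (0.57) turned to a Cov excess with the ERCC alignment. The IFITM genes are close copies of each other and their separate levels are uncertain. ISG15, a ubiquitin-like modifier, was 106 and 91.5 in Ku and 286 and 298 in Cov, and BST2, also called tetherin, was 203 and 204 in Ku and 505 and 579 in Cov. Ku cells thus held part of the list at substantial levels and held OAS2, OAS3, OASL, MX2, RSAD2 and XAF1 below 1 FPKM.

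**Figure D3:**
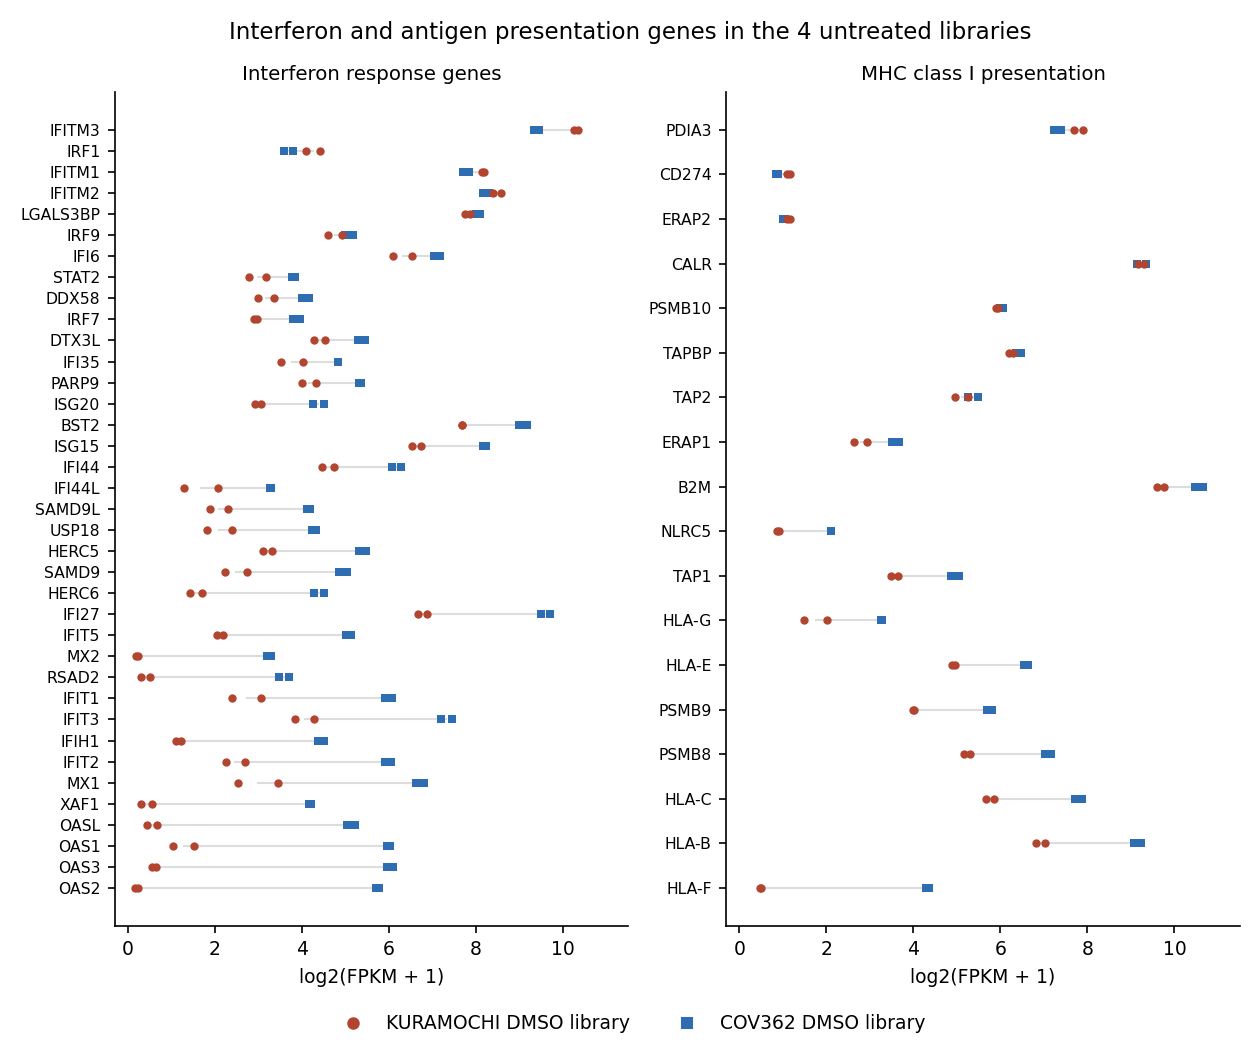
Log2(FPKM + 1) of interferon response genes and of MHC class I presentation genes in each Ku library (red circles) and each Cov library (blue squares), ordered by the difference of the line means. The 17 interferon genes set apart all have Cov higher, OAS2, OAS3 and OAS1 show the widest distances, and IFITM3 lies on the Ku side under every scaling, unlike IFITM1, IFITM2 and IRF1, which turn with the ERCC alignment.

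Interferon-stimulated promoters carry an element bound by STAT and IRF proteins, built from repeats of GAAA. To show it in the genes that moved together, the promoters of RefSeq in GRCh38.p14 (250 bases before to 50 bases after each start) were searched for GAAANNGAAA and, on the other strand, TTTCNNTTTC. Overlapping matches were counted. Of 27305 promoters 996 held a match (3.65%), and of 10014 tested genes with a promoter listed, 287 did (2.87%). In the interferon list 19 of the 29 genes with a promoter held a match, 9 of 13 among those set apart and 10 of 16 among the others. Among all genes set apart, 30 of 406 higher in Cov (7.39%) and 5 of 196 higher in Ku (2.55%) held a match. Shown here are the 150 bases before the start of 3 genes set apart with Cov higher and of IFITM3, which ran the other way, 5′ to 3′ on the strand of the gene with matches inside these bases in capitals. They lie at chr10:89392473-89392622 (plus strand) for IFIT1, chr10:89327847-89327996 (plus strand) for IFIT3, chr12:112938324-112938473 (plus strand) for OAS3 and chr11:320861-321010 (minus strand) for IFITM3.
IFIT1: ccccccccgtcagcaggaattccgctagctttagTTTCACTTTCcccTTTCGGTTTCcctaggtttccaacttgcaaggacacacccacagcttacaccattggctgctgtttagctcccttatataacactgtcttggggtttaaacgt
IFIT3: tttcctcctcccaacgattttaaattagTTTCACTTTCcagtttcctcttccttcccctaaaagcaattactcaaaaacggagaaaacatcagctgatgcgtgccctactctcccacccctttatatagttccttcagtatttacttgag
OAS3: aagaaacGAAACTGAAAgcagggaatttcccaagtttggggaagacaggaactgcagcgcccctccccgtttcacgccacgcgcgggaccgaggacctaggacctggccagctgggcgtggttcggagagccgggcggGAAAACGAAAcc
IFITM3: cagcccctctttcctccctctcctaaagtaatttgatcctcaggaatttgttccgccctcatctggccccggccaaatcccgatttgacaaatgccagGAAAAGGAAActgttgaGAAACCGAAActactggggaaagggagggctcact
The element was present in the gene higher in Ku as well as in the genes higher in Cov, and OAS1, RSAD2 and XAF1, all far higher in Cov, had no match in the window. A match is a description of letters and not of a bound site.

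Antigen presentation genes showed the same direction in part. Of 19 class I genes tested, 3 were set apart with Cov higher (15.8%) and 0 with Ku higher, and the list median was -1.23, or -1.63 to -0.88 under the other scalings. HLA-B, a classical class I heavy chain, was 128 and 111 FPKM in Ku and 533 and 595 in Cov, a gap that fell below 4-fold under some scalings. HLA genes are polymorphic and similar in sequence, so their FPKM depend on how well the reads of each line match the reference and are uncertain. HLA-F, a nonclassical heavy chain, was 0.382 and 0.416 in Ku and 18.5 and 19.5 in Cov. The light chain B2M was 870.1 and 773 in Ku and 1418 and 1622 in Cov. PSMB8 and PSMB9, subunits of the immunoproteasome, were higher in Cov without a 4-fold gap, with PSMB8 at 38.5 and 34.7 in Ku and 129 and 143 in Cov. Class II genes were mostly at or below 1 FPKM and 5 of 12 were tested. CD74, the invariant chain of class II, was the one set apart, at 2.01 and 1.82 in Ku and 91.8 and 93.1 in Cov, while its regulator CIITA was below 1 FPKM in all 4 libraries.

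Chemokines and cytokines leaned to Cov. Of 30 tested, 7 were set apart with Cov higher (23.3%) and 1 with Ku higher (3.33%), with a list median of -0.90 and of -1.36 to -0.56 under the other scalings. CXCL10, an interferon-induced attractant of T cells, was 1.37 and 0.754 FPKM in Ku and 41.8 and 46.1 in Cov. CCL5, another T cell attractant, was 0.202 and 0.123 in Ku and 7.74 and 9.84 in Cov. IL18, a cytokine of the IL-1 family made by epithelium, was 0.924 and 0.375 in Ku and 59.3 and 62.7 in Cov. The neutrophil attractant CXCL5 was 0.165 and 0.226 in Ku and 9.11 and 9.99 in Cov, and the myeloid growth factor CSF2 was at the floor in Ku and 6.89 and 7.79 in Cov. BIRC3, an inhibitor of apoptosis that is a target of NF-kappaB, was 1.04 and 0.798 in Ku and 24.2 and 27.2 in Cov. In Ku the nuclear cytokine IL33 was set apart, at 12.8 and 9.76 in Ku and 0.296 and 0.288 in Cov. CCL2, a monocyte attractant, was high in both, at 294 and 261 in Ku and 387 and 445 in Cov. TNF was 10.6 and 8.72 in Ku and 2.69 and 2.09 in Cov, and IL32 was 89.8 and 81.8 in Ku and 39.4 and 39.2 in Cov, both higher in Ku. IL1A and IL1B were at or below 1 FPKM in all 4 libraries. The lines thus produced different cytokine transcripts, and not all NF-kappaB-related genes were higher in Cov.

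Among cell cycle genes the widest gap was that of RB1, with little transcript in Cov. RB1 (chr13:48877880-49173572) encodes the retinoblastoma protein, which restrains E2F factors before DNA replication. It was 37.5 and 33.5 FPKM in the Ku libraries and 1.24 and 1.57 in the Cov libraries, 25.3-fold higher in Ku. CDKN2C, an inhibitor of CDK4 and CDK6, was 5.22 and 4.75 in Ku and 47.4 and 50.7 in Cov, 9.83-fold higher in Cov. FOXM1, a factor of mitotic genes, was 31.4 and 29.4 in Ku and 172 and 189 in Cov. These 3 were the genes set apart among 28 cell cycle genes tested, and 19 of the 28 lay higher in both Cov libraries (54.5% of all tested genes did), with a median of -0.52 (-1.11 to -0.17 under the other scalings). CDK4 was 95.6 and 84.8 in Ku and 296 and 324 in Cov, and CDK6 was likewise higher in both Cov libraries. CCND1, the D-type cyclin of these kinases, was 145 and 133 in Ku and 392 and 446 in Cov. MKI67, a marker of cycling cells, was 32.98 and 27.1 in Ku and 112 and 128 in Cov. CCNE2 ran the other way, at 42.4 and 34.96 in Ku and 14.6 and 17.3 in Cov, while CCNE1 was 41.5 and 38.2 in Ku and 54.8 and 57.5 in Cov. CDKN2A, the gene of p16, was high in both lines, at 339.6 and 359 in Ku and 223 and 244 in Cov, a difference of 0.58 that turned to -0.08 with the ERCC alignment.

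The 4-fold gaps around RB1 covered a narrow stretch. Its near neighbors, chosen after the values had been seen and given as a description, were ITM2B at 423 and 413 FPKM in Ku and 89.1 and 99.5 in Cov and LPAR6 at 7.86 and 6.82 in Ku and 0.106 and 0.129 in Cov, both set apart with Ku higher (ITM2B not with the ERCC alignment). LPAR6 lies inside an intron of RB1 on the other strand, and use of strand in the authors' counting is not stated, so its reads and those of RB1 may be shared. Within 1 Mb on either side 8 of 10 tested genes were higher in both Ku libraries (31.2% of all tested genes were). Their median was 0.60, or 0.09 with the ERCC alignment. In the flanking stretches out to 5 Mb the counts were 8 of 13, 1 of 2, 9 of 12 and 8 of 13. The medians there were 0.34 to 0.51 and turned to -0.28 to -0.03 with the ERCC alignment. DNA copy number was not measured in these libraries, and its part in the result was not tested.

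**Figure D4:**
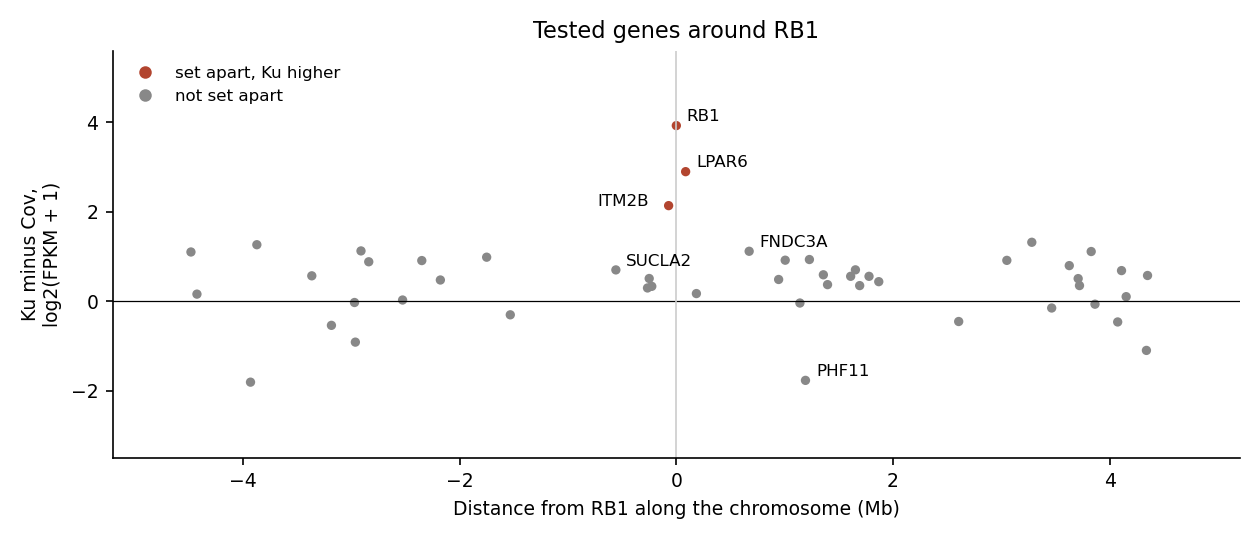
Difference of mean log2(FPKM + 1), Ku minus Cov, for tested genes within 5 Mb of RB1, by distance between the lower coordinates of the genes. Red points are set apart with Ku higher and grey points are not set apart. Only ITM2B, RB1 and LPAR6 are set apart (ITM2B not with the ERCC alignment).

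Receptor tyrosine kinases differed gene by gene. Of 36 tested, 4 were set apart with Cov higher (11.1%) and 1, TIE1, with Ku higher (2.78%), with a median of -0.01 that turned to 0.22 with equal sums. MET, the receptor of hepatocyte growth factor, was 36.1 and 30.2 FPKM in Ku and 159 and 185 in Cov, a gap lost under some scalings, and its relative MST1R was 0.121 and 0.153 in Ku and 8.97 and 8.84 in Cov. DDR2, a receptor for fibrillar collagen, was 0.227 and 0.219 in Ku and 21.5 and 22.7 in Cov. EGFR, just short of a 4-fold gap, was 17.3 and 12.6 in Ku and 69.8 and 80.5 in Cov, and AXL was 28.9 and 24.3 in Ku and 76.4 and 86.7 in Cov. ERBB2 was higher in Ku under every scaling, at 43.98 and 42.5 in Ku and 13.4 and 15.04 in Cov. FGFR1, FGFR2, FGFR3 and FGFR4 were each higher in both Ku libraries, as were 31.2% of all tested genes. None of them was set apart in the deposited values. FGFR1 was 28.7 and 26.3 in Ku and 14.8 and 15.95 in Cov, and FGFR3 was 8.61 and 8.70 in Ku and 1.14 and 1.64 in Cov. EPHA2, the most abundant of the list, was 170.3 and 162 in Ku and 185 and 199 in Cov, a difference of -0.20 that turned to 0.15 with equal sums. Genes induced by ERK signaling downstream of these receptors did not share a direction. DUSP6 was 30.3 and 26.03 in Ku and 36.6 and 38.6 in Cov, DUSP4 was 5.62 and 4.89 in Ku and 10.1 and 10.7 in Cov, and SPRY2, higher in Ku, was 57.9 and 53.2 in Ku and 18.2 and 19.2 in Cov.

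HOX genes, which encode position along the body axis and keep their state in adult Müllerian tissue, split by cluster. Of 27 tested, 3 were set apart each way (11.1%). HOXD1 was 13.1 and 10.5 FPKM in Ku and 0.288 and 0.512 in Cov, and HOXD3 was 8.84 and 7.78 in Ku and 0.312 and 0.279 in Cov. HOXA10, a gene of the uterine segment of the duct, was 13.7 and 11.7 in Ku and 1.82 and 1.89 in Cov, and HOXA11, next to it, was 2.91 and 2.49 in Ku and 0.219 and 0.274 in Cov. HOXA9, HOXA10 and HOXA11 were therefore higher in Ku while the opposite end of the same cluster was higher in Cov. HOXA4 was 0.119 and 0.213 in Ku and 7.36 and 8.55 in Cov, and HOXA3 was 0.167 and 0.142 in Ku and 4.27 and 5.10 in Cov, with gaps of HOXA3 and HOXA10 that fell below 4-fold under at least 1 of the other scalings. In the HOXB cluster HOXB8 was 0.119 and 0.120 in Ku and 10.1 and 8.68 in Cov, and HOXB2, the most abundant of the list in Cov, was 15.99 and 15.7 in Ku and 42.2 and 45.2 in Cov.

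Wnt and Notch genes likewise held gaps both ways, 4 of 33 with Ku higher (12.1%) and 3 with Cov higher (9.09%), with a median of 0.13 that turned to -0.52 with the ERCC alignment. LEF1, a nuclear effector of beta-catenin, was 20.3 and 15.3 FPKM in Ku and 0.791 and 0.859 in Cov. AXIN2, a feedback target of Wnt signaling, was 4.91 and 4.89 in Ku and 0.570 and 0.601 in Cov, and LGR5, a stem cell receptor and Wnt target, was 66.7 and 57.6 in Ku and 13.7 and 14.6 in Cov. WNT7A, a ligand of Müllerian patterning, was 14.8 and 13.8 in Ku and 141 and 157 in Cov, and WNT7B was 0.139 and 0.195 in Ku and 9.54 and 10.1 in Cov. The ligand WNT2B ran the other way, at 5.05 and 4.64 in Ku and 0.175 and 0.293 in Cov, a gap below 4-fold with the ERCC alignment, as did WNT5A at 14.3 and 11.9 in Ku and 2.56 and 2.48 in Cov. Wnt ligands thus differed in both directions. NOTCH3, a receptor often gained in serous carcinoma, was 20.4 and 19.03 in Ku and 1.34 and 1.73 in Cov, and HEY2, a repressor downstream of Notch, was 7.39 and 6.34 in Ku and 0.182 and 0.209 in Cov. HES1, also downstream of Notch, was higher in Cov, at 30.5 and 29.9 in Ku and 47.4 and 47.2 in Cov. Notch genes thus did not share a direction either.

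Metabolic lists showed few gaps. Of 26 genes of serine, asparagine and proline synthesis, 1 was set apart with Cov higher (3.85%) and 0 with Ku higher. That gene was ASNS, asparagine synthetase, at 9.96 and 7.93 FPKM in Ku and 81.6 and 91.6 in Cov, 9.68-fold higher in Cov. Other genes tied to the factor ATF4, which induces ASNS under amino acid shortage, did not share a direction. TRIB3 and DDIT3 were higher in Cov, with TRIB3 at 5.04 and 4.50 in Ku and 20.4 and 21.8 in Cov and DDIT3 at 19.02 and 15.98 in Ku and 54.3 and 58.01 in Cov. SLC7A11, a cystine transporter, was 21.5 and 18.03 in Ku and 13.3 and 14.7 in Cov, a difference of 0.47 that turned to -0.16 with the ERCC alignment. ATF4 itself was 282 and 259.8 in Ku and 288 and 309 in Cov, a difference of -0.14 that turned to 0.10 with equal medians, and CHAC1, another of its targets, was 5.03 and 3.87 in Ku and 5.17 and 5.50 in Cov, a difference of -0.22 that turned to 0.03 with median-of-ratios scaling. ASS1, the enzyme that makes argininosuccinate, was 500.4 and 467 in Ku and 117 and 129.9 in Cov. Of 23 glycolytic and glucose-responsive genes, 1 was set apart with Ku higher (4.35%), the aldolase ALDOC at 38.7 and 34.2 in Ku and 0.250 and 0.322 in Cov. TXNIP, whose transcript follows glucose, was 192 and 163 in Ku and 46.1 and 53.2 in Cov, short of the 4-fold gap. The culture media of the lines differ in composition, and their part in these values was not tested.

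None of the genes at the center of the study was set apart between the untreated lines. MYC, the growth factor-responsive transcription factor, was 82.5 and 73.9 FPKM in Ku and 165 and 180.3 in Cov, 2.21-fold higher in Cov, with a difference of -1.14 (replicate SD 0.10) and of -1.80 to -0.78 under the other scalings. It ranked at the 88.5 percentile in Ku and at the 93.9 percentile in Cov, so it was an abundant transcript in both. MCL1, an inhibitor of apoptosis with a short-lived transcript, was 142 and 124 in Ku and 171 and 196 in Cov, a difference of -0.46, or -1.12 to -0.11 under the other scalings. CDK7, the kinase of the general factor TFIIH, was 26.3 and 19.5 in Ku and 44.7 and 47.4 in Cov, higher in both Cov libraries under the deposited values. CDK12, which acts in elongation, was 21.7 and 17.2 in Ku and 18.1 and 19.9 in Cov, with libraries that overlapped and a difference of 0.03 that turned to -0.61 with the ERCC alignment. CDK13 was 16.4 and 13.9 in Ku and 17.5 and 18.4 in Cov, a difference of -0.23 that turned to 0.06 with median-of-ratios scaling. None of the 18 genes of the MYC family and MCL1 survival list and none of the 13 transcriptional kinases and partners was set apart, and the medians of 0.26 and -0.08 turned to -0.34 with the ERCC alignment and to 0.26 with equal sums. POLR2A, the large subunit of RNA polymerase II, was 133 and 118 in Ku and 54.1 and 59.98 in Cov, higher in Ku under every scaling. MYCN was 1.98 and 2.06 in Ku and 0.521 and 0.519 in Cov, far below MYC in both.

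Homologous recombination genes, whose loss is frequent in serous carcinoma, were present in both lines. Of 24 tested, RAD51D alone was set apart, with Cov higher (4.17%, against 4.30% of all tested genes), at 1.91 and 2.32 FPKM in Ku and 13.6 and 13.7 in Cov, a gap lost under some scalings. BRCA1 was 16.9 and 14.4 in Ku and 21.3 and 23.7 in Cov, and BRCA2 was 3.69 and 2.94 in Ku and 4.17 and 4.81 in Cov. The share of the list set apart was that of the background, and its median of -0.30 turned to 0.03 with equal sums. Among 11 drug efflux transporters tested, ABCA3 was set apart with Cov higher, at 0.605 and 0.361 in Ku and 12.6 and 13.3 in Cov, and the list median of 0.11 turned to -0.38 with the ERCC alignment. ABCB1, the transporter most studied in paclitaxel resistance, was below 1 FPKM in all 4 libraries.

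**Figure D5:**
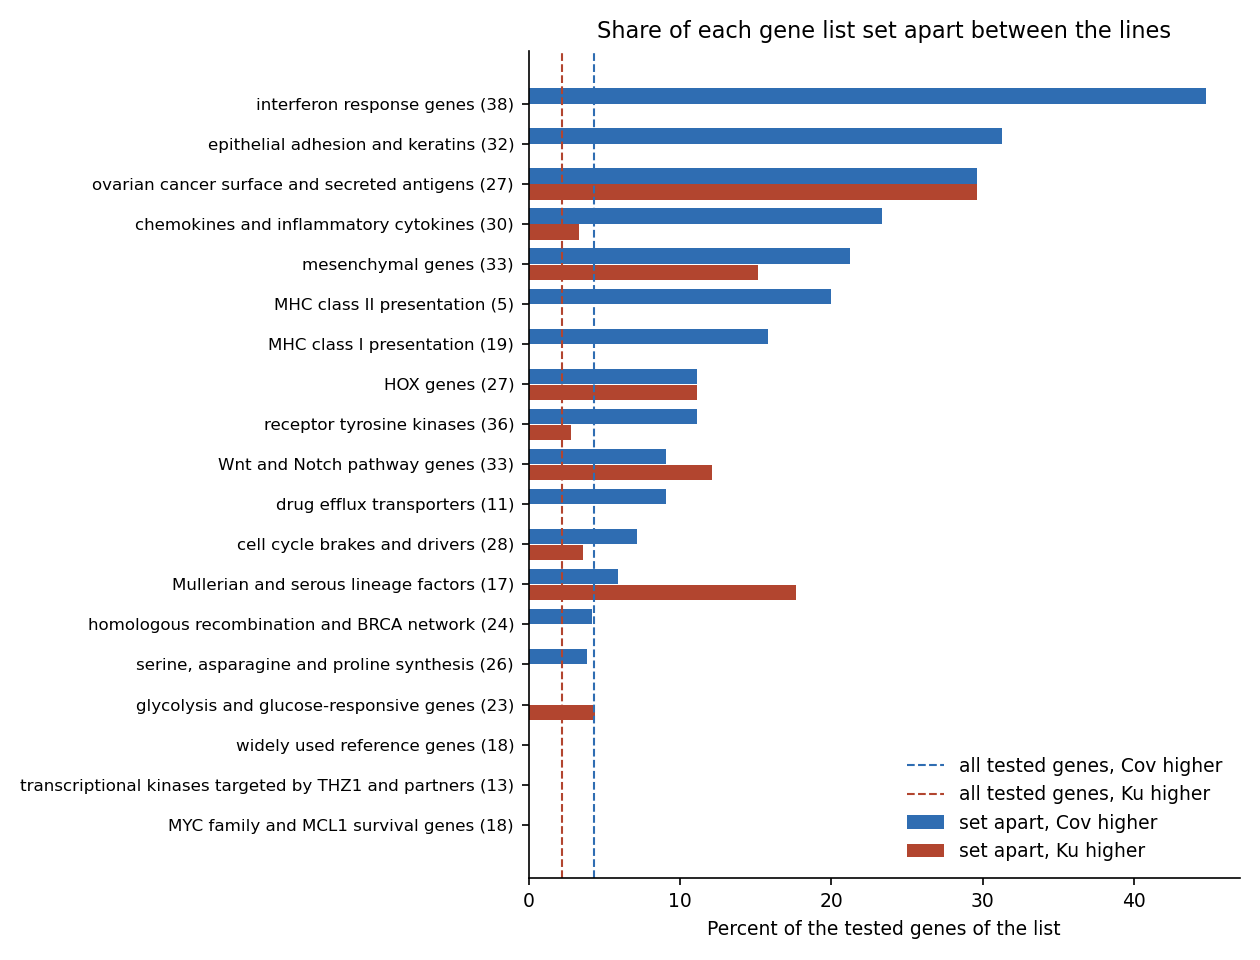
Percent of the tested genes of a list set apart with Cov higher (blue bars) and with Ku higher (red bars), with the number of tested genes in brackets and dashed lines at the shares of all tested genes, 4.30% and 2.18%. Interferon response genes (44.7%) and epithelial genes (31.3%) have the highest Cov shares, antigens (29.6% each way) are split, and 3 lists have no gene set apart.

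Genes in wide use as references were not equal between the lines. None of 18 was set apart, and 12 were higher in both Cov libraries and 5 in both Ku libraries, beside 54.5% and 31.2% of all tested genes, and their median was -0.58 (-1.24 to -0.22 under the other scalings). GAPDH was 4494 and 4305 FPKM in Ku and 7828 and 8944 in Cov, a 1.91-fold difference, and YWHAZ was 1101 and 1004 in Ku and 362 and 415 in Cov, 2.71-fold in the other direction. ACTB had libraries that overlapped, at 5430.4 and 5288 in Ku and 5352 and 6116 in Cov, with a difference of -0.09 that turned to 0.26 with equal sums. GAPDH, YWHAZ and ACTB thus gave 3 different ratios between the lines.

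Markers of other cell types were looked for in all libraries. Sums of markers are over a whole list, tested or not. Of 10 immune markers 2 were tested, CD68 at 2.84 and 1.77 FPKM in Ku and 3.71 and 4.53 in Cov and CD14 below 2 FPKM, while PTPRC, the leukocyte antigen CD45, was at most 0.299 FPKM. Summed over the list, immune markers reached 5.36 and 4.45 FPKM in Ku and 5.60 and 6.14 in Cov. Of 8 endothelial markers 5 were tested. The list summed to 16.1 and 14.3 in Ku and 19.8 and 22.7 in Cov. CDH5 was the most abundant in Ku and ERG in Cov. ERG was set apart with Cov higher, at 1.27 and 1.18 in Ku and 10.04 and 12.2 in Cov, a gap lost with equal sums. PECAM1 was below 1 FPKM in every library. Of 10 fibroblast markers 5 were tested. The list summed to 34.4 and 29.0 in Ku and 106 and 116 in Cov, with THY1 the most abundant. DCN, LUM, FAP, PDGFRA and PDGFRB were at or below 1 FPKM in all 4 libraries, while COL1A2 was set apart with Cov higher and COL3A1 with Ku higher (COL3A1 not with the ERCC alignment). In bulk RNA, fewer cells that express a gene and less RNA of it per cell cannot be told apart.

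Markers of related epithelia gave a mixed picture. Of 10 mesothelial markers 7 were tested, and WT1 was the gene set apart. The list summed to 219 and 204 FPKM in Ku and 142 and 150.5 in Cov, with MSLN the most abundant. Both Ku libraries lay above both Cov libraries for 6 of the 7 (31.2% of all tested genes) and below them for 1. The list median was 0.92, or 0.65 with the ERCC alignment. UPK3B was 46.3 and 45.6 in Ku and 15.4 and 15.3 in Cov, and CALB2, which encodes calretinin, was at or below 1 FPKM in all 4 libraries. Of 10 markers of tubal secretory cells 9 were tested. The list summed to 3900.3 and 3597 in Ku and 2083 and 2291 in Cov. SLPI was the most abundant in Ku and set apart there. KRT7 was the most abundant in Cov, and KRT7, EPCAM, MUC16 and LCN2 were set apart in Cov. Of 10 markers of ciliated tubal cells 6 were tested, with sums of 72.0 and 70.5 in Ku and 7.84 and 8.60 in Cov. Most of the Ku sum was CAPS, a calcium-binding protein, at 47.1 and 50.2 in Ku and 1.24 and 1.46 in Cov, and the ciliary master factor FOXJ1 was at 0.899 and 1.04 in Ku and 0.166 and 0.139 in Cov. Clear cell carcinoma markers numbered 7, of which 4 were tested. GPX3, PAEP and SPP1 were set apart with Ku higher (75%, beside 2.18% of all tested genes), GPX3 not with the ERCC alignment. The other tested marker, ANXA4, was higher in Cov, at 37.3 and 38.6 in Ku and 52.2 and 57.6 in Cov. The list summed to 1844 and 1789 in Ku and 202 and 217 in Cov, mostly SPP1 in Ku. NAPSA, an aspartic protease used to detect that type, was below 1 FPKM in all 4 libraries.

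Markers of other identities were low, apart from SOX2 in Cov. None of the 10 mucinous gut markers with an entry was above 1 FPKM in any library, and their sums were at most 1.26 FPKM. Granulosa and sex cord markers summed to 3.03 and 3.17 FPKM in Ku and 5.50 and 6.96 in Cov, with 2 of 9 tested and FOXL2 below 1 FPKM. Germ cell markers summed to 2.80 and 2.54 in Ku and 24.2 and 24.9 in Cov. Nearly all of the Cov sum was SOX2, a stem cell factor, which was set apart with Cov higher. SOX2 was 0.287 and 0.242 in Ku and 20.9 and 21.9 in Cov, while DDX4, DAZL and NANOG were at or below 1 FPKM. Of 6 neuroendocrine markers only CHGA was tested, at 3.99 and 3.26 in Ku and 6.84 and 6.13 in Cov. Set against the label of ovarian cancer, both lines thus held PAX8, SOX17, MECOM and MSLN, and WT1 was high in Ku and below 1 FPKM in Cov. The tubal secretory list was split, with KRT7, EPCAM, MUC16 and LCN2 set apart with Cov higher and SLPI with Ku higher.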

How the data were processed

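Poly(A) RNA of untreated KURAMOCHI and COV362 cells was compared, with groups and replicates taken from the labels. Per the submitters' processing notes and the methods of the study, the authors aligned single-end reads to hg19 with HISAT, quantified and normalized them with Cufflinks and Cuffnorm (versions not given), and scaled FPKM values to ERCC RNAs mixed into RNA from counted cells. The libraries were made with a TruSeq stranded poly(A) kit, and use of strand in the counting is not stated. The FPKM were deposited as 1 table for each line and are not counts, so depth is unknown. All columns of samples were identified, and 28 entries whose symbol had become a date were kept out of the named genes.

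Genes were matched by name, ERCC entries were set aside, and values were transformed as log2(FPKM + 1). A gene was tested when it exceeded 1 FPKM in 1 or more of the 4 libraries. No p-value was taken, because the tables were normalized separately. The named genes are, for each line, the 15 with the largest gap among those set apart also with equal medians, outside small RNAs, readthroughs, date entries and sex-linked genes XIST, TSIX and those of chromosome Y, the 10 with the highest FPKM, members of the lists, and MYC, MCL1, CDK7, CDK12 and CDK13; others are named as chosen after their values were seen. The members and lists were chosen with earlier results of these data known. The 20 gene lists and 11 cell type lists were written from general knowledge.

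Alternatives were scaling to equal medians, median-of-ratios scaling, division by summed FPKM, a pseudocount of 0.1, a minimum FPKM of 10 or none, gaps of 2-fold and 8-fold, removal of small RNAs, ranks within libraries, the 50 nM libraries and each library left out. The ERCC alignment, the 250 nM libraries and the median after division by summed FPKM were added after the data were seen. The code was tested on simulated data. Positions come from GENCODE lifted to GRCh37 (12635 of 14101 tested genes matched) and promoters from RefSeq in GRCh38.p14. Python 3.11.15 with pandas 2.3.3, numpy 2.4.6 and matplotlib 3.10.9 was used.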

Additional observations from a re-analysis of the deposited data

How the results depend on the processing

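The counts of genes set apart were 307 with Ku higher and 606 with Cov higher. They stayed within 1.5 times of these values with equal medians (406 and 515) and median-of-ratios scaling (443 and 493). The same held with a minimum FPKM of 10 (248 and 421) and without small RNAs (301 and 593). Removing the minimum left 307 and 606 by construction, since a 4-fold gap on this scale already requires more than 1 FPKM. With libraries scaled to equal sums of FPKM the Cov count was 380, with the Ku count at 383. The ERCC alignment, chosen after the data were seen, gave 193 and 1187. A pseudocount of 0.1 gave 592 and 1153, by its construction, since it widens gaps near the floor. A gap of 2-fold gave 1078 and 2275 and a gap of 8-fold gave 133 and 207, also by construction. With 50 nM libraries in place of DMSO the Cov count was 276, and with 250 nM libraries, chosen after the data were seen, it was 284, while the Ku counts were 371 and 226. The cause was not tested. Leaving out 1 library at a time gave 322 to 406 genes with Ku higher and 630 to 734 with Cov higher. By construction these counts can only stay or rise, since each call rests on the nearest libraries.

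The median difference of -0.28 became -0.00058 with median-of-ratios scaling, -0.067 with equal medians, -0.86 with the ERCC alignment and 0.038 with equal sums, the last chosen after the data were seen, which follows from what each scaling sets equal, and it was -0.37 to -0.19 without 1 library at a time. Of 593 genes named or listed, 160 were set apart. Of these, 0 reversed under equal medians, median-of-ratios scaling, a pseudocount of 0.1, ranks or any library left out. A gap of at least 4-fold cannot reverse when a library is left out, and has little room to under the other changes. The 0 is therefore no measure of stability. Among the genes not set apart the sign changed for 31 with equal medians and for 43 with median-of-ratios scaling. It changed for 50 by rank and for 6 to 12 without 1 library. No paired analysis was possible because replicate numbers of separate lines are not pairs. Unknown depth leaves the error of genes near the floor unmeasured beyond the spread of 2 replicates.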

Other observations

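These genes were picked once their values were known and are given as values only. Retinoid genes differed between the lines in both directions. ALDH1A2, which makes retinoic acid, was 65.7 and 56.8 FPKM in Ku and 0.127 and 0.110 in Cov, while ALDH1A3, a sister enzyme for the same step, was 3.91 and 3.85 in Ku and 652 and 754 in Cov. The binding protein CRABP2 was 849 and 769.9 in Ku and 79.2 and 88.4 in Cov, and CRABP1 was 56.02 and 44.5 in Ku and 0.109 and 0.247 in Cov. The retinol uptake receptor STRA6 was higher in Cov, at 13.1 and 10.7 in Ku and 81.5 and 86.3 in Cov, as was RBP7 at 2.79 and 1.95 in Ku and 29.7 and 33.00 in Cov. The lines thus differed in which of the sister enzymes was abundant.

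Metallothioneins showed the same kind of exchange, with levels uncertain because the copies are nearly identical. Of 8 tested, 3 were set apart with Ku higher and 3 with Cov higher, beside 2.18% and 4.30% of all tested genes. MT1X was 539 and 464 FPKM in Ku and 46.7 and 40.8 in Cov, and MT1F was 153 and 114 in Ku and 10.4 and 12.3 in Cov, against MT1E at 0.124 and 0.124 in Ku and 271 and 273 in Cov. MT2A, the most abundant, was 1294 and 1148 in Ku and 669.5 and 673 in Cov.

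Secreted growth factor and matrix genes also differed in both directions. IGFBP7 was 890.3 and 865 FPKM in Ku and 37.7 and 39.6 in Cov, and IGFBP2 was 1010.5 and 1022 in Ku and 127 and 138 in Cov, whereas IGFBP3 was 29.1 and 25.01 in Ku and 143 and 166 in Cov. Both IGFBP2 and IGFBP7 stood high in the line that also held IGF2. Of 14 matrix metalloproteinases tested, 4 were set apart with Cov higher and 1 with Ku higher, beside 4.30% and 2.18% of all tested genes. Besides MMP7, MMP10 was 0.781 and 0.376 in Ku and 36.3 and 39.99 in Cov and MMP13 was 0.118 and 0.147 in Ku and 16.5 and 18.04 in Cov, while the membrane-bound MMP14 was 24.9 and 24.7 in Ku and 0.103 and 0.124 in Cov. A pair of apolipoprotein genes besides APOE were higher in Ku, with APOC1, the neighbor of APOE, at 59.99 and 60.5 in Ku and 3.81 and 4.86 in Cov and APOA1 at 25.2 and 22.8 in Ku and 0.461 and 0.561 in Cov.

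On chromosome X, the cancer-testis genes MAGEA3 and MAGEA6 were 28.98 and 24.8 and 31.6 and 30.2 FPKM in Ku, while Cov libraries held both near the floor, and CSAG1 was 50.3 and 37.6 in Ku and 0.192 and 0.271 in Cov. Near-identical copies make the separate levels uncertain. BEX4 was 0.815 and 1.03 in Ku and 60.5 and 70.5 in Cov, and BEX2 was 3.71 and 3.22 in Ku and 40.1 and 46.7 in Cov. By chromosome, chromosome 21 had 14 of 121 tested genes set apart with Cov higher (11.6%) and 1 with Ku higher (0.826%), and chromosome 18 had 15 of 172 (8.72%) and 1 (0.581%), beside 4.30% and 2.18% of all tested genes. In the deposited values chromosome 13 had the highest median difference, 0.42, and chromosome 18 the lowest, -0.83.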
